A study of Homo sapiens with 5 samples.

Results

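The binding of heat shock factor 1 (HSF1) in OVCAR8 cells was read from 2 peak lists, 1 for each HSF1 CUT&RUN library, both called against the same IgG library. Peaks of both lists on chromosomes 1 to 22, X and Y that overlapped by at least 1 bp were merged, and the 2141 merged intervals that held a peak of each replicate were taken as reproducible. The replicate 1 list gave 6421 peaks on these chromosomes and the replicate 2 list 4459, and the 4 lists of the whole series hold 49905 peaks. The study examined high-grade serous ovarian cancer cells in which HSF1 and MYC are both amplified, and asked with CUT&RUN where each factor binds the genome. OVCAR8 is an established human ovarian carcinoma line. All cells were untreated and grew at 21% oxygen and 5% CO2 in DMEM with 10% serum, and they were fixed on the plate with 1% formaldehyde for 1 minute before 500000 cells were taken per reaction for the HSF1 antibody or the IgG control. CUT&RUN cuts chromatin out where an antibody has tethered a nuclease, and those fragments are then sequenced. The labels list 2 HSF1 replicates and 1 IgG control and do not say whether the replicates were separate cultures, so their spread may be technical. The labels call the cells epithelial cells of an ovarian tumor, which peak lists, holding no expression, cannot check against markers. HSF1 replicate 1 held 10042269 fragments after 1 copy of each duplicate was kept, HSF1 replicate 2 held 8721440 and the IgG library 9306942.

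HSF1 is the main transcription factor of the heat shock response. On activation it forms trimers that bind heat shock elements, which are inverted repeats of the unit GAA, and it raises the transcription of molecular chaperones, the proteins that fold other proteins and keep them from aggregating. In many tumor cells HSF1 is active without heat, and it then also binds genes outside the classical chaperone set.

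The element was searched as 3 units in alternating orientation over 13 bp, spelled GAANNTTCNNGAA or TTCNNGAANNTTC, and the sites below show it at genes on which the results turn. Sequences are from GRCh38, plus strand, 5′ to 3′, with the GAA and TTC units in capitals, and the distance is that from the middle of the element to the nearest annotated start site of the gene. This start need not be the outermost one. HSP90AB1 and HSPB1, among others, begin farther upstream, at 44246166 and 76302673, so their elements lie inside the annotated gene.
ST13 at chr22:40856748-40856776, 123 bp upstream: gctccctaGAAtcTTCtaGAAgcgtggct
STIP1 at chr11:64185847-64185875, 310 bp upstream: gagaggtgGAAatTTCcaGAAcgatcaga
HSPA8 at chr11:123062346-123062374, 8 bp upstream: ccgcagcgTTCtgGAActTTCaagctcgc
HSPD1 and HSPE1 at chr2:197500063-197500090, 47 bp downstream of the HSPD1 start and 63 bp upstream of the HSPE1 start: ctcggTTCcaGAActTTCcaGAAaatgc
HSP90AA1 at chr14:102087112-102087140, 82 bp upstream: agcctcccGAAccTTCcgGAAgaaccctc
HSP90AB1 at chr6:44247770-44247798, 82 bp upstream: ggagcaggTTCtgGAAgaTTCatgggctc
HSPH1 at chr13:31161943-31161971, 30 bp upstream: actgatcaGAActTTCcaGAAtctgcggc
DNAJA1 at chr9:33025268-33025296, 4 bp upstream: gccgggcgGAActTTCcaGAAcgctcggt
DNAJB6 at chr7:157336865-157336893, 87 bp upstream: agagccgaGAAccTTCgcGAAggtggggc
HSPB1 at chr7:76303615-76303642, 52 bp downstream: tcgaaGAActTTCcgGAAgtTTCtgaga
CRYAB at chr11:111911803-111911831, 47 bp upstream: agtcttgtGAAgcTTCtgGAAtggtgatg
SERPINH1 at chr11:75562169-75562197, 34 bp upstream: ttccaactTTCcaGAAgtTTCtcgggacg
CCT4 at chr2:61888596-61888623, 46 bp downstream: ctgccTTCacGAAccTTCcaGAAagcgg
CHORDC1 at chr11:90223084-90223112, 21 bp upstream: cgtTTCagGAAccTTCgcGAAttTTCcgg
Most of these sites hold exactly 3 units. Those of HSPD1 and HSPE1, HSPB1 and CCT4 hold 4 units and that of CHORDC1 holds 5.

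The replicates were compared first. Of the replicate 1 peaks, 2186 of 6421 (34.0%, 95% Wilson interval 32.9 to 35.2) overlapped a replicate 2 peak. Of the replicate 2 peaks, 2154 of 4459 (48.3%, 46.8 to 49.8) overlapped a replicate 1 peak. These intervals, here and below, include counting error alone, and PCR copies may make them too narrow. Shared peaks were taller and wider than the others: the median pileup, which is the number of fragments covering the summit, was 14 for shared and 10 for unshared peaks of replicate 1, and 13 and 8 in replicate 2. The median width of shared peaks was 384.5 bp against 236 bp in replicate 1, and 429 bp against 229 bp in replicate 2. The shortest class, with pileups of 5 to 9, overlapped in 18.1% of replicate 1 peaks and 25.8% of replicate 2 peaks. Peaks with pileups of 50 to 99 overlapped in 89.1% and 94.3%. Absence of a peak from a list means that none passed the caller at this depth, not that HSF1 was absent.

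**Figure D1:**
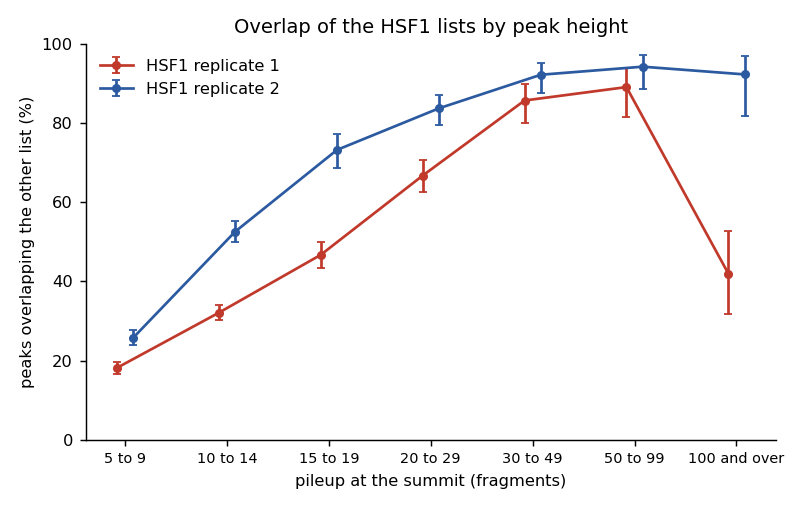
Share of peaks of each HSF1 list that overlap a peak of the other list (vertical axis, percent) by pileup at the summit (horizontal axis, fragments), with 95% Wilson intervals as bars. Both lines climb to about the 50 to 99 class, at 89.1% and 94.3%, and replicate 1 alone drops to 42.0% at pileups of 100 and over.

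The tallest replicate 1 peaks broke this order. Of the 81 replicate 1 peaks with a pileup of 100 or more, 34 overlapped replicate 2 (42.0%), against 48 of 52 (92.3%) for replicate 2. There were 47 such intervals in replicate 1 only, and none of them held the element. In 33 of them the sequence was a dense GGAAT-type repeat, described below, all on chromosomes 1 and 16. Of the other 14, 6 lay between 629144 and 634316 on chromosome 1, a stretch with a nuclear copy of mitochondrial DNA. The highest peak of either list, with a pileup of 4219 at chr3:93470492-93470668, was also in replicate 1 only.

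Within the 2141 reproducible intervals the replicate pileups followed each other. Across intervals, which are not independent replicates, Spearman's rho of the depth-scaled pileup, which is the pileup per 1000000 kept fragments, was 0.71 and Pearson's r on the log2 scale was 0.82. The median log2 ratio of replicate 1 to replicate 2 was -0.20 with an SD of 0.59 over intervals, and 1900 intervals (88.7%) differed by no more than 2-fold. The summits of the replicates lay a median of 77 bp apart, and 1260 pairs (58.9%) lay within 100 bp. Intervals had a median width of 546 bp, with 400 and 752 bp at the quartiles.

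**Figure D2:**
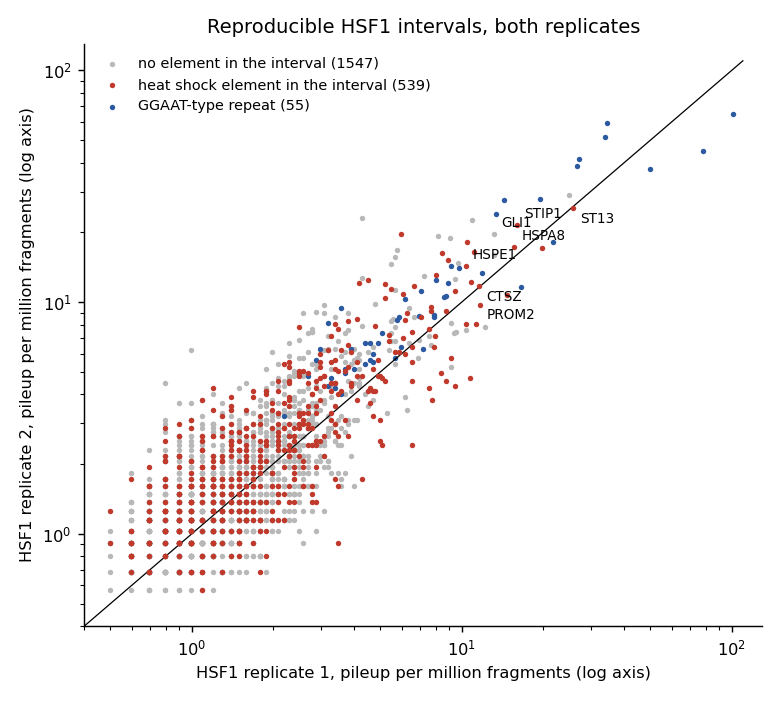
Depth-scaled pileup (per 1000000 kept fragments) of the 2141 reproducible intervals in HSF1 replicate 1 (horizontal, log axis) and replicate 2 (vertical, log axis), 1 point per interval, with the line of equal values. Red points hold a heat shock element (539), blue points are GGAAT-type repeats (55) and gray points hold neither (1547). The 3 points farthest right are repeats, and ST13 is the highest interval with an element.

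The highest intervals were ranked by the lower of both replicates' depth-scaled pileups, so that neither library alone could put an interval at the top. Of the 10 highest, 8 were GGAAT-type repeats near centromeres, far from any gene start, with EMB (4 intervals) and CWH43 (1 interval) as the nearest protein-coding genes and noncoding genes nearest the other 3. This class was defined after the values were seen, as intervals with at least 3 GGAAT or ATTCC pentamers per 100 bp. It held 55 intervals with 4.14 to 15.1 pentamers per 100 bp, while the most in any other interval was 2.27 and the median 0.25. They lay on 9 chromosomes, 28 of them on chromosome 4 between 49094566 and 49652496. The highest was chr16:46389664-46391213 with pileups of 1016 in replicate 1 and 564 in replicate 2, and the lowest pileup in the class was 16 in either replicate. The repeat is shown around the summit of the highest chromosome 4 interval, with each pentamer in capitals.
Repeat at chr4:49149423-49149482: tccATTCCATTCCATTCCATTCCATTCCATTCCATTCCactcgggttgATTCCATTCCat
The array shown runs in 1 orientation, with ATTCC after ATTCC, whereas the heat shock element alternates GAA and TTC. None of the 55 intervals held the 3-unit element, and 1 held a 2-unit one, against 62.5% of all reproducible intervals with 2 units. They were 2.57% of intervals and took 14.5% of the summed depth-scaled pileup in replicate 1 and 13.8% in replicate 2. Short reads from such arrays can align to many copies. Whether these signals come from HSF1 at the repeat or from the alignment of copies was not tested, and the repeat class is left out where a rank among the other 2086 intervals is given.

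ST13, which encodes an HSP70-interacting cochaperone, held the highest interval outside the repeat class. Its pileup was 260 in replicate 1 and 222 in replicate 2, or 25.9 and 25.5 after scaling to depth. The interval spans chr22:40855235-40857685 over the divergent promoter of ST13 and XPNPEP3, and the element shown above lies 96 bp from its strongest summit. STIP1, which joins HSP70 to HSP90, had pileups of 161 and 187 at its promoter. HSPA8, the constitutive HSP70 of the cytosol, had 157 and 151. In all 3 promoters the replicates differed by far less than the 2-fold that held 88.7% of the intervals.

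The interval at chr11:117817612-117819351 ranked just above STIP1, with pileups of 199 and 149. Its midpoint lies 38 bp from the start site of the noncoding gene ENSG00000254844, in the promoter of DSCAML1, and FXYD2 starts within 5 kb. It holds 3 elements in an array of 5 units. CTSZ, which encodes the protease cathepsin Z, had pileups of 116 and 102 at its promoter. At PWWP3A the pileups were 95 and 97 over an array of 6 units at the promoter. The divergent promoter of FBXO15, an F-box protein gene, and TIMM21, a gene of mitochondrial protein import, had 88 and 80. None of these genes is in a chaperone list, and the sites of the first 3 loci are as follows.
ENSG00000254844 and DSCAML1 at chr11:117818401-117818429: atgGAAcaTTCtaGAAcaTTCtaGAAacg
CTSZ at chr20:59008169-59008197: ctcctgacTTCcaGAAgcTTCcatgacca
PWWP3A at chr19:1354621-1354648: GAAgaTTCtcGAAagTTCtgGAAggTTC

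Of the other intervals in the 15 highest outside the repeats, ZC3HAV1 had pileups of 110 and 198 in its first intron with no 3-unit element. This gene encodes an antiviral zinc finger protein. LY6K had 109 and 107 at its promoter, and an interval in the first intron of LRIF1 had 105 and 159. The promoter shared by HSPD1 and HSPE1, the mitochondrial chaperonin and its partner, had 104 and 125. An interval at chr17:26883987-26884290, 115787 bp from the nearest start site, had 250 and 253 and held no element, and another peak close by, at chr17:26881392-26881570, reached 187 in replicate 2 only.

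GLI1, the transcription factor of Hedgehog signaling, stood apart from the rest. Its interval had pileups of 132 and 171 and no 3-unit element. All 7 peaks that the lists hold at GLI1 had their summit in an exon. The 3 peaks of replicate 1 lay in exons 2, 4 and 7 with pileups of 37, 132 and 97. The 4 peaks of replicate 2 lay in exons 4, 7, 11 and 12 with pileups of 171, 129, 195 and 461. Those in exons 11 and 12 had no counterpart in replicate 1, that in exon 2 had none in replicate 2, and no summit lay in an intron or upstream of the gene. The cause of this pattern was not tested.

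The reproducible intervals were placed by their midpoint. Promoters, here 1000 bp upstream to 100 bp downstream of a start site of a protein-coding or lncRNA gene, held 520 intervals (24.3%), introns 886 (41.4%), intergenic sequence 636 (29.7%) and exons 99 (4.62%). Over the single lists the promoter share was 25.3% ± 2.17 (SD, n = 2 libraries) and the intron share 42.4% ± 1.96. Outside the repeats, promoters held 46.0% of the 50 highest intervals and 22.8% of those ranked after 1000. Of 791 intervals inside an intron of a gene's canonical transcript, 318 (40.2%) were in intron 1. The median distance to the nearest start site was 6504 bp, 625 intervals (29.2%) lay within 1 kb and 120 (5.60%) over 100 kb away. Of the 520 promoter intervals, 103 (19.8%) were within 1 kb of the start sites of at least 2 protein-coding genes, such as ST13 with XPNPEP3 and HSPD1 with HSPE1.

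A gene was taken as bound if a reproducible interval reached within 5 kb of one of its start sites. By this rule 921 of 20033 protein-coding genes (4.6%) were bound, and 428 of 18866 lncRNA genes (2.27%). Of the bound protein-coding genes, 233 (25.3%) had the element in an interval. Of 103 chaperone genes in 6 lists, 44 (42.7%) were bound, against the same 4.6% over all protein-coding genes. The replicate 1 list alone gave 53 and the replicate 2 list alone 47. Over all protein-coding genes these single lists gave 12.2% and 9.47%. The lower depth-scaled pileup at the bound chaperone genes had a median of 3.88, against 1.26 over all bound protein-coding genes. In 40 of the 44 the highest interval was at a promoter, though not always that of the chaperone gene. At DNAJC16 and CRYAB it lay 2079 and 3328 bp from their own start sites. The element was in an interval of 22 genes, for CRYAB and HSPA4L in one other than the highest.

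**Figure D3:**
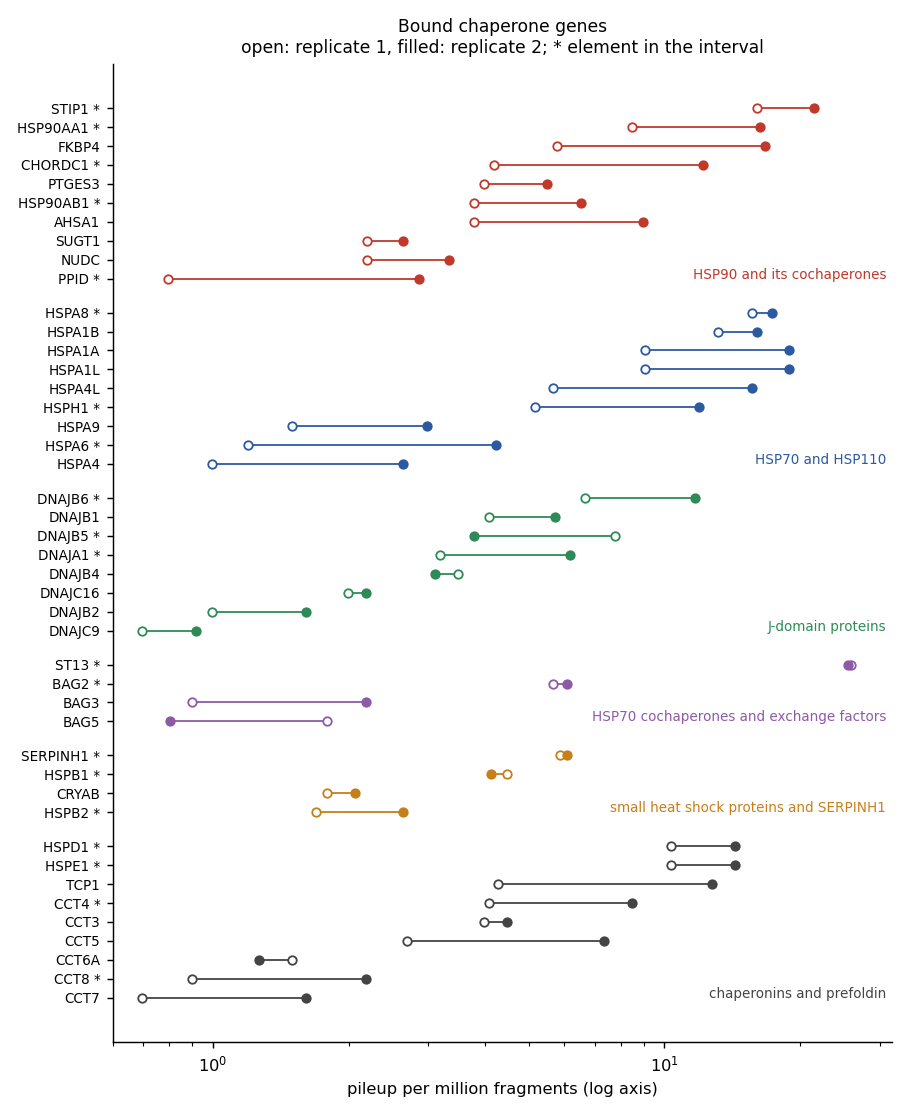
Depth-scaled pileup (per 1000000 kept fragments) (horizontal, log axis) at the highest interval of each of the 44 bound chaperone genes in HSF1 replicate 1 (open) and replicate 2 (filled), grouped and colored by list. An asterisk marks an element in that interval. ST13 is farthest right in both replicates and STIP1 next, and the filled point lies right of the open one in 38 genes and left of it in 6.

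HSP90 and its cochaperones were bound at 10 of 15 genes. HSP90AA1, the inducible cytosolic HSP90, had pileups of 85 and 142, and HSP90AB1, the constitutive form, had 38 and 57. FKBP4, an immunophilin cochaperone, had 58 and 146. CHORDC1, a cochaperone with zinc-binding domains, had 42 and 106. After scaling to depth the replicates differed by more than 2-fold at FKBP4 (5.78 and 16.7), CHORDC1 (4.18 and 12.2), AHSA1 (3.78 and 8.94) and PPID (0.797 and 2.87). Over all lists 18 of the 44 bound chaperone genes differed by more than 2-fold, 16 of them with the higher value in replicate 2, HSPA1A and HSPA1L counted separately though they share an interval. AHSA1, which activates the HSP90 ATPase, PTGES3, SUGT1, NUDC and PPID made up the rest with STIP1, and the lowest was PPID with 8 and 25. HSP90B1, the HSP90 of the endoplasmic reticulum, and CDC37, the kinase cochaperone, had a peak in replicate 1 only, with pileups of 18 and 12. TRAP1, the mitochondrial HSP90, and UNC45A had none in either list.

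HSP70 and HSP110 genes were bound at 9 of 16. HSPA1B and HSPA1A, which encode the stress-inducible HSP70, had pileups of 132 and 140 and of 91 and 165. HSPA1L shares the interval of HSPA1A. The coding sequences of HSPA1A and HSPA1B are nearly identical, so fragments there cannot be assigned with certainty, and their intervals, chr6:31814323-31815868 and chr6:31826677-31828048, held no exact 3-unit element. HSPA4L had 57 and 136 and HSPH1, an HSP110, had 52 and 104. Lower values were seen at HSPA9, the mitochondrial HSP70 (15 and 26), HSPA6, a strictly inducible HSP70 (12 and 37), and HSPA4 (10 and 23). HSPA5, the HSP70 of the endoplasmic reticulum, and its partner HYOU1 were among 6 of the 16 genes with no peak in either list. The others were HSPA2, HSPA12A, HSPA12B and HSPA14.

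J-domain proteins, which bring clients to HSP70, were bound at 8 of 34 genes. DNAJB6 was highest with pileups of 67 and 102, and 3 intervals reached within 5 kb of its start sites. DNAJB1, the main partner of inducible HSP70, had 41 and 50 without an exact element in its interval. DNAJB5 had 78 and 33, and with DNAJB4 (35 and 27) it was one of 6 bound chaperone genes higher after scaling in replicate 1. DNAJA1 had 32 and 54. The other bound members, DNAJC16, DNAJB2 and DNAJC9, had pileups from 7 to 20. In all, 22 of the 34 genes had no peak in either list. They include DNAJB9, DNAJB11 and DNAJC3, which serve the endoplasmic reticulum, and also others such as DNAJA2 and DNAJA3.

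The HSP70 cochaperones and exchange factors were bound at 4 of 12 genes. After ST13, the highest was BAG2 with 57 and 53. BAG3, which links HSP70 to autophagy, had 9 and 19, and BAG5 had 18 and 7 in an exon 3786 bp from a start site. Small heat shock proteins and SERPINH1 were bound at 4 of 10. SERPINH1, the collagen chaperone HSP47, had 59 and 53, and HSPB1, which encodes HSP27, had 45 and 36. HSPB2 and CRYAB are neighbors in divergent orientation. The interval that holds the CRYAB element shown above had pileups of 17 and 23, and a second one, 3328 bp from a CRYAB start site, had 18 and 18.

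In the list of chaperonins and prefoldin, every bound gene was a chaperonin gene. Of the 16 genes in this list 9 were bound: HSPD1, HSPE1 and 7 of the genes for the cytosolic chaperonin, named TCP1, CCT3, CCT4, CCT5, CCT6A, CCT7 and CCT8. TCP1 had pileups of 43 and 111 and CCT4 had 41 and 74. CCT3 had 40 and 39, CCT5 27 and 64, and the lowest was CCT7 with 7 and 14. CCT2 had a peak of 12 in replicate 2 only. Of the prefoldin genes, PFDN2 had a peak of 7 in replicate 1 only and the others had none. The list holds few prefoldin genes, and at the 4.6% of all protein-coding genes none of them need be bound.

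**Figure D4:**
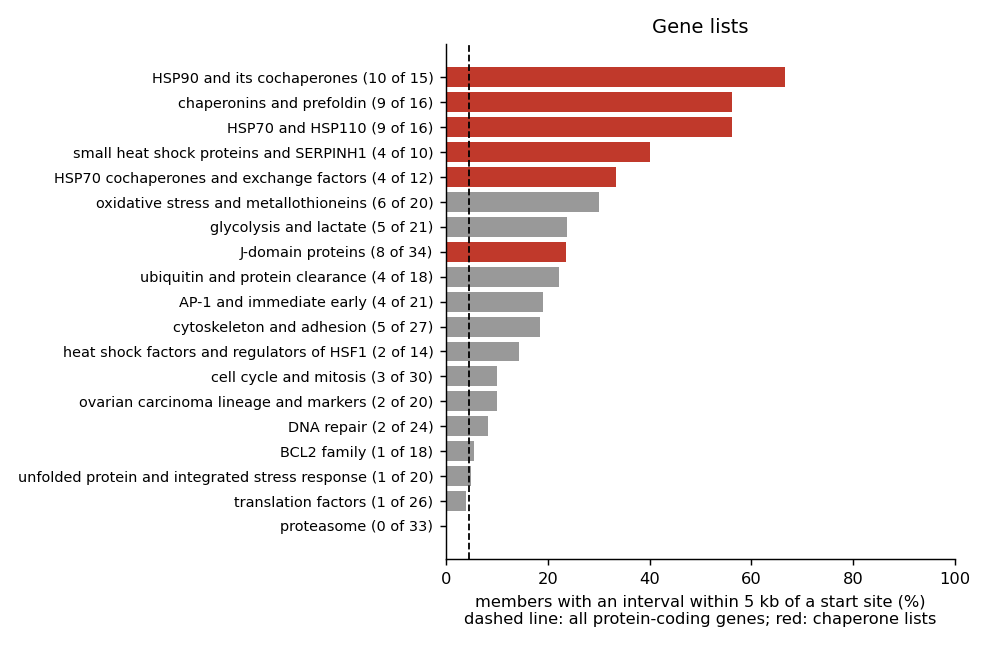
Share of the members of each gene list with a reproducible HSF1 interval within 5 kb of a start site (horizontal, percent), with the count in parentheses and the 4.6% of all protein-coding genes as a dashed line. The 6 chaperone lists, in red, run from 23.5% to 66.7%, and the proteasome list is at 0.

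Outside the chaperones, list shares ran from 0 to 30%, against the 4.6% over all protein-coding genes. The proteasome, which degrades ubiquitin-marked proteins, had no bound gene among 33, where few would be bound at the 4.6% of all protein-coding genes. Its members PSMB5, PSMD1 and ADRM1 had peaks with pileups of at most 11 that did not overlap between the lists. The single lists gave 2 members each, against 12.2% and 9.47% of all protein-coding genes. Among genes of ubiquitin and protein clearance 4 of 18 (22.2%) were bound, one of them HSPA8, which is also in an HSP70 list. UBQLN1, a ubiquitin-binding shuttle protein, had 26 and 78. UBE2B, a ubiquitin-conjugating enzyme, had a peak of 41 in replicate 2 and none in replicate 1.

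The unfolded protein and integrated stress response had 1 bound gene of 20, SYVN1, a ubiquitin ligase of the endoplasmic reticulum, with pileups of 11 and 9. This 5.00% is near the 4.6% of all protein-coding genes. The lists differed here, with 9 members in the replicate 1 list and 1 in the replicate 2 list. Over all protein-coding genes the single lists gave 12.2% and 9.47%. The 8 found in replicate 1 only include ATF4, ERN1, EIF2AK3 and CALR, with pileups of 7 to 13. Translation factors also stood near the background with 1 of 26, EIF4A2 at 24 and 22. DNA repair had 2 of 24 (8.33%). One of them, MDC1, a scaffold protein of the damage response, had 27 and 17 at a promoter shared with TUBB.

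The oxidative stress and metallothionein list had 6 of 20 bound genes (30%). For this list and the next ones the share over all protein-coding genes is the same 4.6%. FTL, the ferritin light chain, had pileups of 33 and 38 and MT2A, a metallothionein, had 26 and 42. HMOX1, heme oxygenase 1, had 13 and 6 at 3319 bp from its start site. Glycolysis and lactate genes were bound at 5 of 21 (23.8%), with pileups from 7 to 24, among them PKM and SLC2A1. Of the AP-1 and immediate early genes 4 of 21 were bound, and DUSP1, a phosphatase of MAP kinases, was highest with 67 and 75. JUN, an AP-1 subunit, had 40 and 27. Cytoskeleton and adhesion genes were bound at 5 of 27 (18.5%), of which KRT8 and KRT18 share 1 interval with 17 and 17.

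The 4.6% over all protein-coding genes is also the background for the next counts. Cell cycle genes were bound at 3 of 30 (10%), CCND3, CDK2 and PLK2, with pileups from 10 to 25. The BCL2 family had 1 of 18 (5.56%), MCL1, with 16 and 20. Of 20 genes of the ovarian lineage and its markers, PAX8 and CLDN4 were bound (10%). PAX8, the lineage factor of ovarian serous carcinoma, was the higher, with 89 and 133 at 4863 bp from its start site and an element in the interval. Among heat shock factors and regulators of HSF1, HSBP1L1 had 71 and 75 and JMJD6 had 23 and 20. These were 2 of 14 genes (14.3%).

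The study names further genes with its CUT&RUN data. PROM2, which encodes a membrane protein of the prominin family, had pileups of 117 and 85 over its intron 8, with an element 33 bp from the strongest summit. RBM23, an RNA-binding protein, had 38 and 72 at its first exon. JMJD6, a hydroxylase, had the values given above at 21 bp from its start site. MYC had a reproducible interval at 8 bp from a start site with 19 and 19, at rank 538, and no 3-unit element in it. The study calls its HSF1 peak at the MYC promoter small and not robust, and likely weak or absent binding. At PLK1, HSF1, CDK4 and ODC1, neither list held a peak over the gene or 5 kb upstream. The elements of the first 3 are shown here.
PROM2 at chr2:95278372-95278400: ctggagtgGAAggTTCcaGAAggaaggaa
RBM23 at chr14:22919148-22919176: ctgccgtcTTCcaGAAccTTCcccaatct
JMJD6 at chr17:76726608-76726636: aagtcgccTTCcaGAAaaTTCactcccca

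The element was counted up to 100 bp from the highest summit and over the whole interval. Within 100 bp, 211 of 2141 intervals held it (9.86%, 95% Wilson interval 8.66 to 11.2), against 23 of 4282 windows of the same length 1000 bp to either side (0.537%). Over the whole interval the count was 539 (25.2%), against 60 of 4282 regions of each interval's own length starting 1000 bp outside its ends (1.40%). Of 35116 RefSeq promoters on GRCh38.p14, trimmed to the same length, 108 (0.308%) held it. The single lists gave 6.51% and 5.97% within 100 bp of the summit. Intervals found in replicate 1 only gave 2.98% and those in replicate 2 only 3.17%.

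The strong intervals carried it more often, and they are also wider. Of the 50 highest outside the repeats, 30 (60%) held it somewhere in the interval, against 6% of regions of the same length outside. Of those ranked after 200 and up to 500 it was 30.7% against 1.83%, and of those ranked after 1000 it was 19.8% against 1.10%. Exon intervals held it in 35.4% (35 of 99), intron intervals in 28.6%, promoter intervals in 21.2% and the 581 intergenic ones outside the repeats in 24.3%. With 1 mismatch allowed in the 9 fixed bases, 55.1% of all intervals held it, against 16% of regions of the same length.

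The element lay beside the summit rather than at it. Among the 539 intervals with an element, the nearest one was a median of 107 bp from the strongest summit, with 76.5 and 146 bp at the quartiles, and 513 (95.2%) had it within 300 bp. Among the 200 highest intervals, the bins at 100 to 150 bp to the left and right of the summit held 35 and 24 matches, and the bins within 50 bp held 5 and 4. The single-element intervals showed the same offset in each library. Of these 463 intervals the replicate 1 summit was within 25 bp of the middle of the element in 25 (5.4%) and the replicate 2 summit in 9 (1.94%), while 75 to 150 bp held 220 (47.5%) and 252 (54.4%). Both summits were on the same side of the element in 331 (71.5%), a median of 44 bp apart, and on opposite sides in 132 (28.5%), 189.5 bp apart. At STIP1 the summit was 141 bp from the element, at HSP90AA1 103 bp and at ST13 96 bp. At HSPA8 it was 44 bp, and at HSP90AB1 the element shown above lay 916 bp from the strongest summit of its interval. A window of 100 bp around the summit thus left out elements of HSP90AA1 and STIP1 that the interval held, and 232 of 539 intervals (43.0%) had the middle of their nearest element within 100 bp of the summit.

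**Figure D5:**
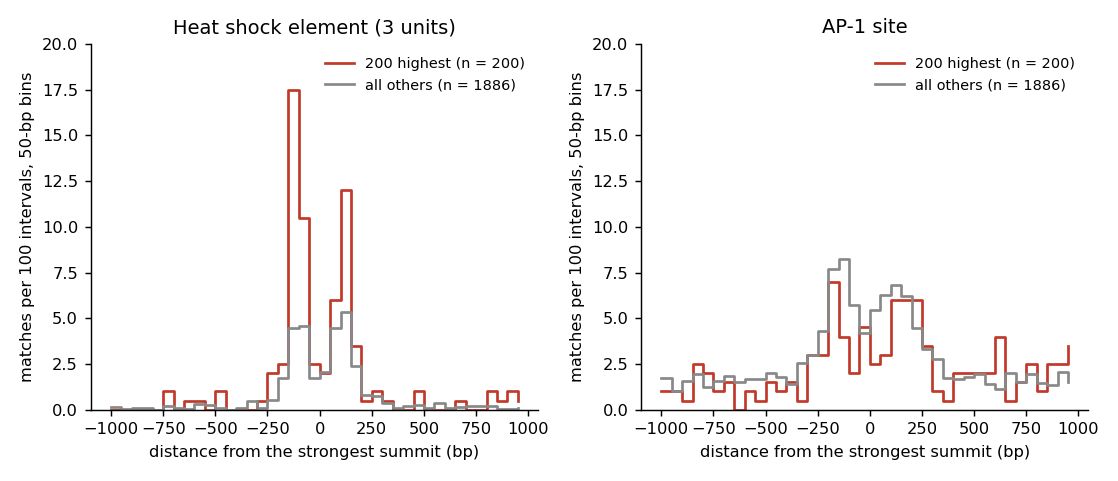
Matches per 100 intervals in 50-bp bins (vertical) by distance from the strongest summit in bp (horizontal, plus strand left to right), for the 3-unit heat shock element and the AP-1 site, in the 200 highest intervals outside the repeats (red) and the other 1886 (gray). The element peaks at about 100 bp on both sides with a dip at 0. In the red line the AP-1 site reaches 7 per 100 at 150 to 200 bp on the left. On the right it is at 6 per 100 from 100 to 250 bp, and within 100 bp of the summit at 2 to 4.5. The red AP-1 line lies below the gray one in most bins within 200 bp of the summit.

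Long arrays were also found. Outside the repeats, the longest alternating run was 3 units in 486 intervals, 4 in 29, 5 in 16, 6 in 6, 7 in 1 and 10 in 1. In 4172 regions of the same length outside, 56 had 3 units, 3 had 4 and none had more. The longest, in an intron of GNG7, a G protein subunit, had modest pileups of 13 and 11. An array of 6 units near FUT5, a fucosyltransferase gene, had 22 and 20. Both arrays, shown here, had more units than the STIP1 element and far lower pileups.
GNG7 at chr19:2678308-2678355: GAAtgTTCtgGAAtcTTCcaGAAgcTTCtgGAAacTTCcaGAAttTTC
FUT5 at chr19:5865310-5865337: GAAtgTTCcaGAAtgTTCtgGAAtaTTC

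Elements also lay far from start sites, at about the share seen elsewhere. Of 841 intervals outside the repeats and over 10 kb from any start site, 216 held the element. Of all 2086 intervals outside the repeats, 539 held it (25.8%). CHST3, a sulfotransferase gene, had such an interval in its first intron with pileups of 81 and 114. CRACDL had 113 and 70 in intron 7 and CELF4, an RNA-binding protein gene, had 66 and 65 in intron 2. Upstream of LIMCH1, an actomyosin regulator, the pileups were 79 and 56. At CHST3 replicate 2 was the higher, and at CRACDL and LIMCH1 replicate 1.

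Other short motifs were searched in the same windows on both strands. The AP-1 site TGANTCA, bound by JUN and FOS proteins, was within 100 bp of the summit in 363 intervals (17%) against 5.98% of flanking windows and 5.36% of RefSeq promoters. Outside the repeats it was in 28.3% of exon intervals (28 of 99, flanks 2.02%), in 21.1% of intron intervals (flanks 6.15%) and 18.1% of intergenic ones (6.2%), and in 7.88% of promoter intervals (5.77%). Within 100 bp it did not rise with the height: 12% of the 50 highest held it and 18.2% of those ranked after 1000. Over the whole interval the order was the reverse. There 46% of the 50 highest held it, against 27% of regions of the same length, and 40.8% of those ranked after 1000, against 14.6%. The GC box GGGCGG was in 42.3% of promoter intervals, close to the 39.8% of all RefSeq promoters, and in 8.58% of intron intervals. The hexamer GGAATG, read by TEAD factors and also part of the GGAAT repeat, was in 21.3% of intervals outside the repeats against 11.2% of flanks. The E-box CACGTG was in 3.04% against 2.71%, and CCAAT in 23.9% against 23%. A motif match is a description of the sequence and not a bound site.

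The AP-1 share differed between the libraries. Within 100 bp of the summit it was 25.1% in the replicate 1 list and 10.9% in the replicate 2 list. In intervals of 1 list only it was 26.5% and 9.41%, with flanks at 6.08% and 5.57%. Over the whole peak the gap was smaller, with 33.4% and 23.5% of the lists, against 9.64% and 11.4% of regions of the same length. Intervals of 1 list only gave 30.8% and 13.7% over their whole length. The shares by pileup class, for both motifs, leave out peaks in the repeats, which hold no element, unlike the shares of the whole lists. From 50 fragments on, these classes held 112 and 129 peaks. The AP-1 gap within 100 bp held within classes: at 10 to 14 fragments the share was 28.7% and 12.1%. At 20 to 49 it was 25.1% and 10.5%, while from 50 on it was 9.82% and 6.2%. The heat shock element was within 100 bp of the summit in 5.71% and 5.92% of the peaks of 10 to 14 fragments, and in 11.9% and 11% of those of 20 to 49. From 50 on it was in 23.2% and 10.1%. Over the whole peak the element was in 8.24% and 12.8% at 10 to 14 fragments. At 20 to 49 it was in 24.2% and 34.1%, and from 50 on in 50% and 42.6%. With 1 library on each side these differences have no replicate check, and their cause was not tested. An AP-1 site 1 bp from the strongest summit is shown in capitals for RAD51B, in an intron interval with pileups of 28 and 32 and no heat shock element.
RAD51B at chr14:68549181-68549209: aggctggtgacTGAGTCAgacttggaaca

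Most genes had a single interval. By nearest start site and outside the repeats, 1517 genes had 1 interval, 189 had 2 and 49 had 3 or more. PVT1, a noncoding gene next to MYC, had the most, with 12 intervals over 369 kb, pileups of 12 to 39 in replicate 1 and 8 to 47 in replicate 2, and the element in 2 of them. CCDC200 followed with 9, none with the element, and ENSG00000273664, ENSG00000289587 and LINC02530 with 7 each. Per Mb of sequence and outside the repeats, chromosome 19 had 1.85 intervals and chromosome 17 had 1.5, against 0.710 over all. Chromosome 8, where HSF1 and MYC lie, had 0.898 and chromosome X 0.245. Pileup counts fragments and is corrected neither for the copy number of the line nor for the IgG signal, whose part in these values was not tested.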

How the data were processed

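CUT&RUN libraries of OVCAR8 cells were used as the peak lists the authors deposited. The authors aligned the reads to GRCh38 with Bowtie 2 and, per the file headers, called peaks on each library with MACS 2.2.9.1 on paired-end fragments, against the IgG library (named replicate 2 in the headers, without a number in the labels), at a p-value threshold of 1e-04 for HSF1, keeping 1 duplicate. Replicates were not pooled. The deposited pileup is a signal: the number of fragments over the summit. The headers state that the larger library is scaled to the smaller, but the replicate 1 pileups are whole numbers and their counts are not doubled at 6, 19 and 32 (1.13, 0.949 and 0.973 times the mean of the neighboring values), as rescaling would do, so the pileup was read as unscaled and given per 1000000 kept fragments (depth-scaled). A value of 1 fragment is 0.0996 on this scale in replicate 1 and 0.115 in replicate 2. The p-value and fold enrichment columns hold the authors' own comparisons with IgG and were not used, and per the file headers the q-value was not calculated. The IgG library has no list here, and the MYC lists served only for the total. All 59 sequence names of the HSF1 lists are in the GRCh38 reference and 0 peaks end past their sequence. Both lists share 2 peaks with the same start and end.

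Lists were merged and annotated with GENCODE 44 (20033 protein-coding and 18866 lncRNA genes) in Python 3.11.15 with numpy 2.4.6, pandas 2.3.3, scipy 1.17.1 and pysam 0.24.0, and drawn with matplotlib 3.10.9. Merging and motif search were tested on simulated data. The results are counts and shares, with no test, since 2 libraries of 1 condition allow none, and intervals and genes are not replicates. Of the 19 gene lists, 392 symbols matched a protein-coding gene and 1, HSPB11, did not. Genes are named from the 10 highest intervals (extended to 15 outside the repeats), the 10 highest coding promoters with an element, up to 4 bound members of a list and those without an interval, the genes the study names and those with most intervals. Further list members, the distal sites, the arrays, the AP-1 example and the GLI1 exons were added after their values were seen. The members and lists were chosen with earlier results of these data known. Some items that the naming rule selects are not reported here.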

Additional observations from a re-analysis of the deposited data

Results flagged for a closer look

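The comparisons used chromosomes 1 to 22, X and Y only. Outside them, 25 further intervals held a peak of each HSF1 replicate, on 15 unplaced or unlocalized sequences. Their pileups ran from 7 to 486 in replicate 1 and from 7 to 543 in replicate 2, against the IgG library as background in the authors' calls. The replicate 1 list held 56 peaks and the replicate 2 list 33 on such sequences, among them 1 mitochondrial peak in replicate 1 with a pileup of 1535 and none in replicate 2.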

How the results depend on the processing

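Of 74 values recomputed under 22 listed alternatives and 2 added after seeing the data, 37 kept within the tolerance (1.5 times for counts) and 37 moved. The 2141 reproducible intervals became 8681 as the union of both lists, 1341 and 728 with pileups at least at the list median or above the 75th percentile, 1421 with 50% reciprocal overlap and 1260 with summits within 100 bp, and single lists gave 4459 to 6421. Bound protein-coding genes (921) became 3274, 576, 334 and 588 for the union, the median, the 75th percentile and the summits, and 1898 to 2437 in single lists. The 44 chaperone genes became 27 with 50% reciprocal overlap and lay within 1.5 times under the other alternatives, with 47 to 53 in single lists. The promoter share (24.3%) was 29.2%, 38.5% and 45.4% for 1, 3 and 5 kb either side, 20.1% for protein-coding genes only, 26.8% above the 75th percentile and 23.8% to 26.9% in single lists. The share with a heat shock element (9.86%) was 4.72% for the union, 10.7% above the 75th percentile, 10.9% with reciprocal overlap, 10.3% with close summits, 2.48% and 24.5% for 50 and 250 bp either side, 0.887% for 4 units, 24.6% with 1 mismatch, 25.2% over the whole interval (added) and 5.97% to 6.51% in single lists. Reciprocal overlap moved Spearman's rho to 0.78, the agreement to 22.1% and 31.9%, and close summits moved it to 19.7% and 28.4%. The 75th percentile moved that of replicate 2 to 63.6%. Leaving out the repeats, also added, moved none of the 6 values it was run for, and it was not run for the agreement of the lists. No paired analysis was possible because 2 libraries of 1 condition give no test. With peaks from 5 fragments on, low peaks carry large counting error, and neither copy number nor the IgG pileup was used here.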
